A study of Macaca mulatta with 27 samples.

Results

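The nuclear genes of the mitochondrial respiratory chain were examined in rhesus macaque embryonic stem cell lines. Members were the genes whose platform-annotation symbol begins with NDUF, SDHA to SDHD, UQCR, COX followed by a digit, or ATP5, which gave 75 of the 14132 genes that carry a symbol of their own on the array. A gene with several probe sets was represented by the probe set with the highest mean signal over all arrays. By the textbook place of their products, 24 members belong to complex I, 3 to complex II, 6 to complex III, 10 to complex IV and 15 to complex V, and 17 are assembly factors or copper and haem chaperones that are not part of a finished complex. Symbols of the same families that share a probe set with another gene, COX4I1 and COX6A1 among them, are not analysed here.

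The respiratory chain sits in the inner mitochondrial membrane. Complexes I and II take electrons from NADH and succinate, complex III passes them to cytochrome c, complex IV hands them to oxygen, and complex V, the ATP synthase, makes ATP with the proton gradient that complexes I, III and IV build. Most subunits are encoded in the nucleus and a core set in the mitochondrial genome, so that products of both genomes are assembled together. Pluripotent stem cells draw much of their energy from glycolysis and still transcribe the chain.

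The lines were derived from the inner cell mass of blastocysts and grown on mouse embryonic fibroblast feeders, and colonies were scraped for RNA. Lines 106 and 306 (male) and 206 (female) had sire M106 and dam F244 and are the triplets. Lines 2706 and 3106 (male) and 2906 and 3006 (female) had sire M106 and dam F88 and are the quadruplets. Lines 2406 (dam F77) and 3806 (dam F32) are female and share sire M106, whereas the male line 906 had sire M36 and dam F183. No line received a treatment that the others lacked. There were 27 Affymetrix arrays of 10 lines: 3 arrays for each of 8 lines, 2 for line 206 and 1 for line 2906. Each line is a single derivation. The labels name no separate culture behind each array, so tests among lines gauge array-to-array spread alone, part or all of which can be technical.

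Values are log2(signal + 16) throughout, where signal is the deposited intensity, so a difference of 1 is a change of about 1 doubling and is understated for dim genes. Array medians ran from 94.1 to 159.7 in signal. The ratio of the 3′ to the 5′ GAPDH probe set, a sign of RNA integrity, had a median of 2.10 and exceeded 3 on 6 arrays, and it was highest on the single array of line 2906, at 13.3. Of 7 pluripotency genes, 5 were called present on all arrays, with POU5F1 at 14.38 ± 0.14 and SOX2 at 13.99 ± 0.24 (SD over line means, n = 10 lines). The others, NANOG (26 arrays) and ZFP42 (23 arrays), were lowest in line 2906, at 8.42 and 8.25, and ZFP42 differed among lines (limma F test, adjusted p = 0.00966). The summed signal of 7 fibroblast genes ranged from 8356 on the array of line 2906 to 40581 on an array of line 106. Fewer cells of a type and less RNA per cell cannot be told apart in these bulk samples.

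The chain was transcribed in all lines. The authors' detection call was present on all 27 arrays for 67 of the 75 members, or 89.3%, against 49% of all genes with their own symbol. These 67 comprised all subunits of complexes I, II and III on the array, 7 of 10 of complex IV, 14 of 15 of complex V and 13 of 17 assembly factors. The 8 others included COX4I2 and NDUFA4L2, which were called present on 0 arrays, and COX6A2, which was called present on 3. COX4I2 and NDUFA4L2 are paralogues of ubiquitous complex IV subunits and are known as hypoxia-responsive, and COX6A2 is the heart and skeletal muscle isoform of subunit 6A. ATP5PB and COX15 were called present on 23 arrays, COX19 on 25, NDUFAF7 on 26 and SDHAF1 on 18. SDHAF1, an assembly factor of complex II, was called present on 0 of 3 arrays of line 906, on 0 of 1 of line 2906, and on 3 of 3 in lines 106, 306, 2406, 3106 and 3806.

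A probe set was tested when it was brighter than the median probe set of an array on 3 or more arrays, and 74 of the 75 members met this. NDUFA4L2 did so on 0 arrays and was not tested. The tested members nearest to the limit were COX4I2 on 20 arrays, COX6A2 on 24 and COX15 on 26.

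Most members were not called as differing among lines. By limma's F test over the 10 lines, 8 of 74 members (10.8%) passed an adjusted p of 0.05, against a background of 17.5% of all 11306 genes tested and 16.6% of all probe sets. Among features called present on all 27 arrays, 6 of 67 members (8.96%) passed, against 19.3% of 6924 genes. The 8 members were ATP5MJ, ATP5F1B, UQCRC2, COX8A, COX6A2, SDHAF4, NDUFA2 and COX4I2. By group, 1 of 24 members passed in complex I, 0 of 3 in complex II, 1 of 6 in complex III, 3 of 9 in complex IV, 2 of 15 in complex V and 1 of 17 among the assembly factors. At an unadjusted p under 0.05, limma's F test gave 1 member of complex II and 16 members in all. The median member had a standard deviation over line means of 0.22 and a within-line standard deviation of 0.24, whereas the medians over all genes tested were 0.27 and 0.29. Differences between lines accounted for a median 19.7% of a member's variance, against 25.3% over all genes tested and 31.3% over genes present on every array.

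Line 2906 held the extreme of many members. It was the highest line for 32 of 74 members (43.2%) and the lowest for 21 (28.4%), against 26.5% and 21.8% of all genes tested. In complex I it was highest for 17 of 24 and lowest for 5, and among the assembly factors it was highest for 3 of 17 and lowest for 7. Line 2906 rests on 1 array, the one with the highest GAPDH ratio. Without it the median standard deviation over line means fell to 0.16 for members and 0.23 for all genes, and 4 of 74 members (ATP5MJ, COX4I2, COX6A2 and SDHAF4) passed the F test, while the share of all probe sets that passed went from 16.6% to 12.1%.

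**Figure D1:**
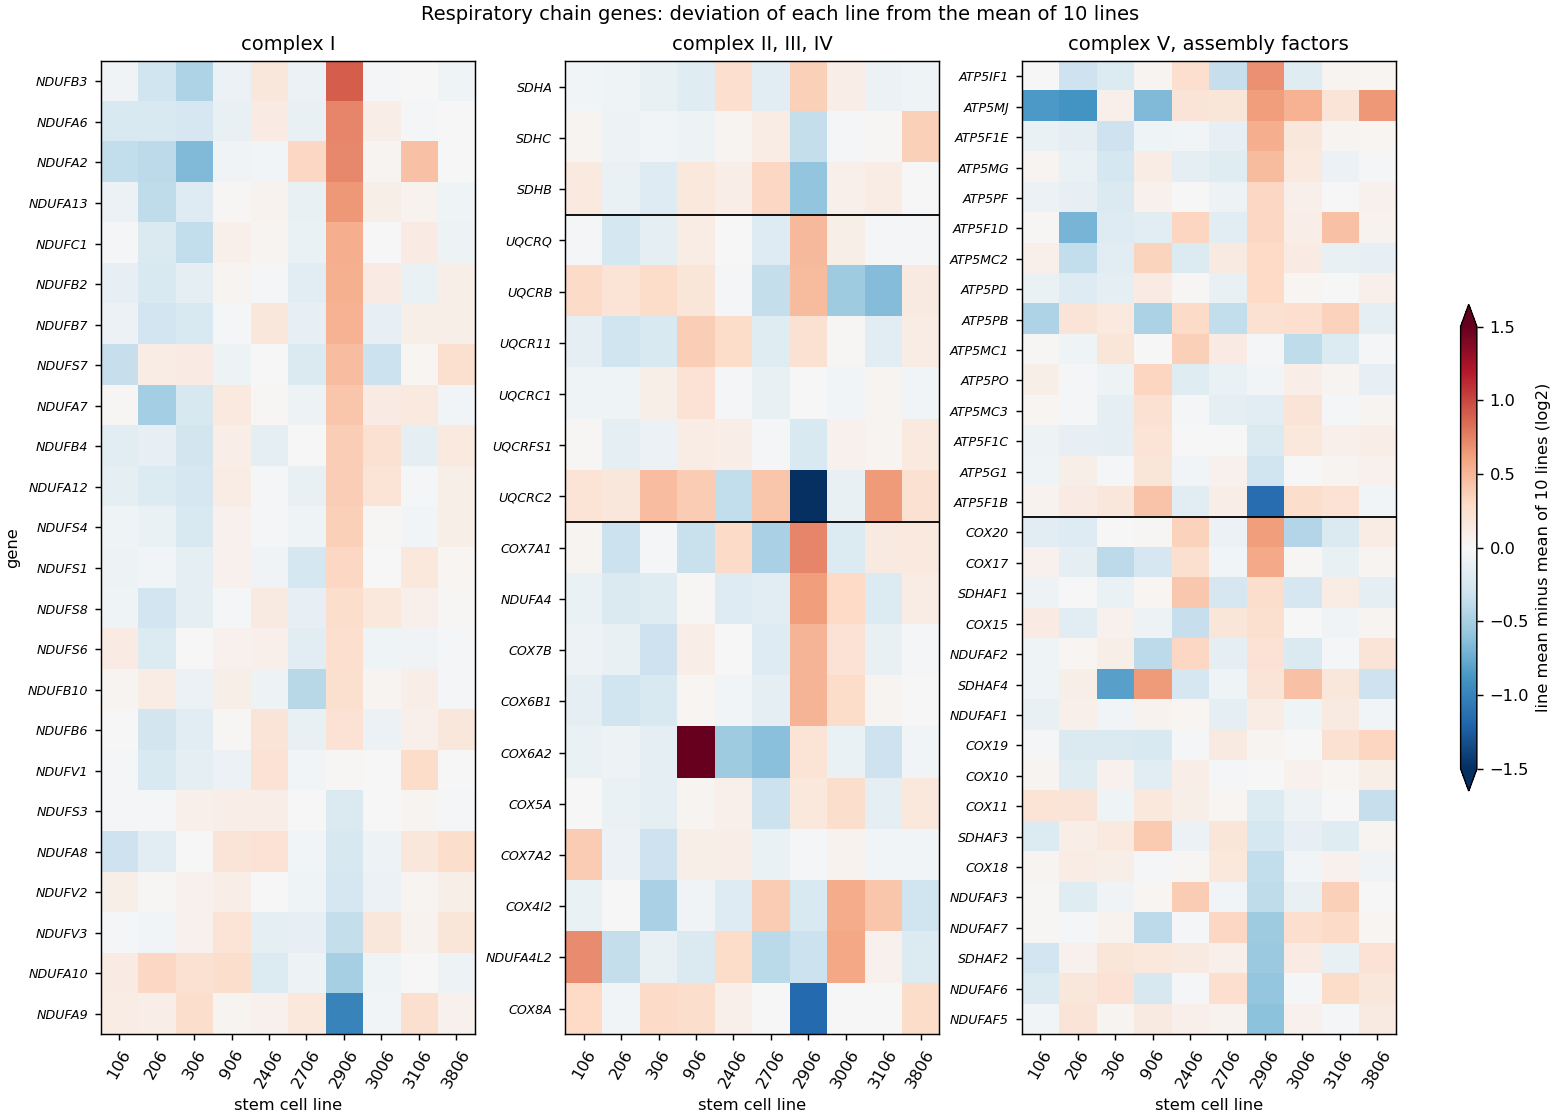
Deviation of each line's mean from the mean of the 10 lines, in log2 units, for all 75 members (rows, sorted within a group by their value in line 2906) and 10 lines (columns); colours are capped at 1.5 in either direction. The column of line 2906 carries the strongest colours in complex I, COX6A2 stands out in line 906, and ATP5MJ is low in lines 106, 206 and 906.

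In complex V, ATP5MJ, a small membrane subunit of ATP synthase, had the smallest adjusted p of all members. Its 3 arrays of line 106 read 9.92, 10.55 and 9.91, the 2 of line 206 read 10.16 and 10.04, and the 3 of line 906 read 10.39, 10.32 and 10.27. The 19 arrays of the other 7 lines lay between 10.79 and 11.97, with a median of 11.26. No array of lines 106, 206 and 906 reached the lowest array of the other lines, a grouping that was made after the values were seen and is therefore given without a test. Lines 106 and 206 share both parents with line 306, whose arrays read 11.01, 11.41 and 10.79. The line means ran from 10.10 ± 0.09 (SD, n = 2) in line 206 to 11.64 ± 0.29 (SD, n = 3) in line 3806, a 2.91-fold range, and lines accounted for 86.2% of the variance (limma F test, adjusted p = 6.49e-05). Between those ends the order was 106, 906, 306, 2706, 2406 and 3106, 3006 and 2906, and lines 2706, 2406 and 3106 lay between 11.17 and 11.19, closer than the spread of their arrays.

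Against the mean of the other lines, ATP5MJ was lower by 0.96 ± 0.15 (SE) in line 106 (limma adjusted p = 0.00161) and by 0.99 ± 0.18 in line 206 (limma adjusted p = 0.00974). It was the only member called in either direction in these lines, where 0.548% and 0.257% of genes tested were called lower and 0.257% and 0.142% higher. The call in line 206 was lost when either of its arrays was left out, without the 4 arrays of highest median and with the replicate block. It was lower by 0.74 ± 0.15 in line 906 (limma adjusted p = 0.00615; 1.92% of genes lower), a call that was lost without array d of that line. It was higher by 0.58 ± 0.15 in line 3006 (limma adjusted p = 0.0196; 4.48% of genes higher) and by 0.72 ± 0.15 in line 3806 (limma adjusted p = 0.0134; 0.752% of genes higher). The call in line 3006 was lost when any of its 3 arrays was left out, with centred arrays, without arrays of high GAPDH ratio, with that ratio as a covariate and with the replicate block. The call in line 3806 was lost with centred arrays and without its array a or c. With the mean of the gene's probe sets in place of the brightest, all 5 of these line calls were lost. The second probe set annotated to ATP5MJ, called present on 23 arrays, did not follow this order: its arrays read 9.01 to 9.80 in lines 106, 206 and 906 and 9.07 to 10.08 in the others, and its line means correlated with those of the brighter probe set at r = 0.18 over 10 lines (limma F test, adjusted p = 0.442). The pattern is thus that of 1 probe set.

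ATP5F1B, the catalytic beta subunit, was lowest on the array of line 2906, at 12.87, and read 13.78 to 14.49 (median 14.13) on the 26 other arrays, with no overlap. The difference from the mean of the other lines was -1.27 ± 0.18 (SE; limma adjusted p = 0.000238), where 3.94% of genes tested were called lower in line 2906. The arrays of line 906 read 14.49, 14.35 and 14.48 and that line was higher by 0.48 ± 0.11 (limma adjusted p = 0.0145; 1.72% of genes higher), although 1 of its arrays lay below the highest array of the other lines, at 14.46. This call was lost with centred arrays, under quantile normalization, with the mean of the gene's probe sets, without arrays of high GAPDH ratio, and without line 2906 or array a or d of line 906. Over all lines the adjusted p of limma's F test was 0.00169. Its second probe set gave an adjusted p of 0.521 in that test and correlated with the first at r = 0.06 over line means. With the mean of the gene's probe sets, the call in line 2906 and the F test call were lost too. These calls are thus those of the brighter probe set.

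The other complex V members varied less. ATP5F1D, the delta subunit of the F1 part, ran from 11.14 ± 0.27 (SD, n = 2) in line 206 to 12.27 ± 0.36 (n = 3) in line 3106 and did not pass the F test (limma adjusted p = 0.244). The smallest ranges of line means were 0.38 for ATP5MC3, which encodes the c ring, and 0.42 for ATP5F1C, the gamma subunit that turns inside the head. The c ring members ATP5MC1, ATP5MC2, ATP5MC3 and ATP5G1 had F-test adjusted p values in limma of 0.0922, 0.639, 0.445 and 0.812. ATP5G1 is an older symbol of ATP5MC1. It is a member of its own only because the platform annotation keeps both symbols, and both may stand for the same gene. ATP5MC1 read 10.88, 10.62 and 10.70 on the arrays of line 3006 and 10.64 to 11.58 (median 11.16) elsewhere, with overlap, and was lower in line 3006 by 0.42 ± 0.13 (SE; limma adjusted p = 0.0445; 5.15% of genes lower), which was lost when any of 16 of the 27 arrays was left out. A dim probe set of ATP5PO, a stalk subunit, called present on 3 arrays, passed the F test (limma adjusted p = 0.00169) with its lowest value, 4.50, in line 2906, whereas the brightest did not (limma adjusted p = 0.55).

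In complex IV, COX6A2 was high in line 906 alone. Its arrays there read 9.40, 9.33 and 9.24, and the 24 other arrays read 6.13 to 8.04, with a median of 7.41 and no overlap. The 3 arrays of line 906 were also the 3 on which the gene was called present. Since the gene was not called present outside line 906, only a bound can be given: it was at least 3.79-fold higher in line 906 than in the mean of the other lines (limma adjusted p = 0.000473; F test over lines, adjusted p = 0.00995). For each other array, the bound takes the higher of the gene's own signal and the lowest signal of any probe set called present there. That floor left the mean of the other lines at 7.40, so the bound equals the measured difference of 1.92. The other 9 line means lay between 6.97 and 7.80. Of 10 cardiac and skeletal muscle genes listed, 7 were on the array and 4 of the 6 tested differed among lines: ACTC1 and MYL7, highest in line 3006, TNNI3, highest in line 2406, and CKM, highest in line 206. Of the 3 others, TNNT2 was highest in line 3006, and MYH6 (7.49; limma F test, adjusted p = 0.747) and MYOD1 (5.12, called present on 0 arrays) were highest in line 906. The summed signal of the 7 ran from 6352 to 10531 on the arrays of line 906, inside the range of 3559 to 17034 over all arrays. The part of muscle-type cells in the COX6A2 value was not tested.

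**Figure D2:**
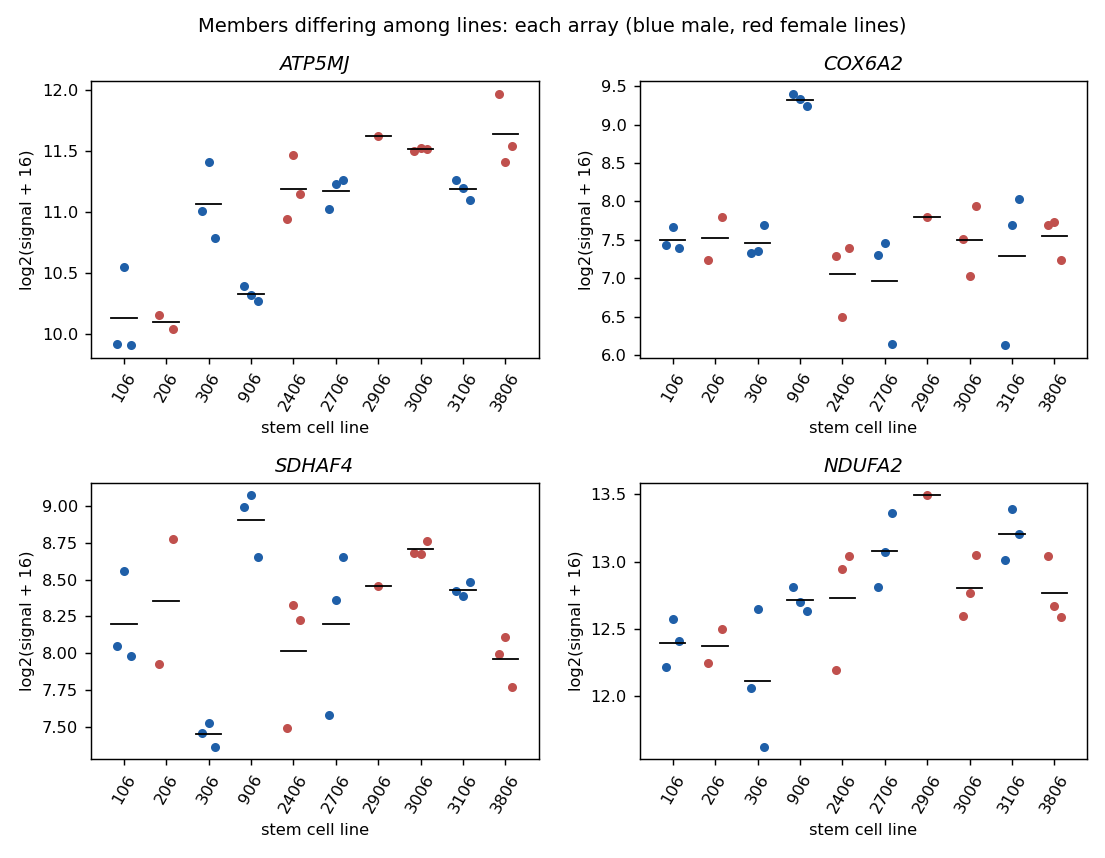
Values of ATP5MJ, COX6A2, SDHAF4 and NDUFA2 on each of the 27 arrays (dots, log2 of signal + 16) by line, with the line mean as a bar, male lines in blue and female lines in red; the vertical axes differ and do not start at 0. The 3 arrays of line 906 lie above all others for COX6A2, and the 3 arrays of line 306 for SDHAF4 lie between 7.36 and 7.52.

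COX8A, a small nuclear-encoded subunit of complex IV, read 10.21 on the array of line 2906 and 11.20 to 11.93 (median 11.47) on the 26 others. The groups did not overlap, and line 2906 was lower by 1.29 ± 0.19 (SE; limma adjusted p = 0.000352). Over lines the F test gave an adjusted p of 0.00409 in limma, and without line 2906 the line means of COX8A spanned 0.34. COX4I2 read 8.09, 8.08 and 7.47 in line 3006 and 6.33 to 8.06 (median 7.20) elsewhere, with overlap. The gene was called absent on every array, so no size of difference is given, although its readings passed limma's threshold in line 3006 (adjusted p = 0.0426) and over lines (F test, adjusted p = 0.0442). These calls were lost when any of 11 and of 18 of the 27 arrays, respectively, was left out.

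The remaining complex IV pairs of tissue isoforms are given by their own values, since signals of different probe sets cannot be ranked. COX7A1, the heart and muscle form of subunit 7A, ran from 9.48 ± 0.26 in line 2706 to 10.70 on the array of line 2906 (limma F test, adjusted p = 0.107). COX7A2, the liver form, ran from 12.01 ± 0.15 in line 306 to 12.70 ± 0.65 in line 106 (limma F test, adjusted p = 0.653). NDUFA4, first assigned to complex I and now counted with complex IV, ran from 13.70 in line 206 to 14.54 in line 2906 (limma F test, adjusted p = 0.144). Its paralogue NDUFA4L2 read 4.59 to 7.20 over the 27 arrays, with its highest value on an array of line 106. COX6B1 and COX7B were highest in line 2906, at 14.77 and 14.71, and did not pass (limma F test, adjusted p = 0.34 and 0.263). COX5A had the smallest range of line means among detected subunits of the complex, 0.58, and its brightest probe set gave an adjusted p of 0.345 in limma's F test, whereas a dim probe set called present on 21 arrays gave 0.0125.

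In complex III, UQCRC2, a core protein of the bc1 complex, had the widest range of line means of all members, 2.67. It read 9.57 on the array of line 2906 and 10.63 to 12.40 (median 11.85) on the others, without overlap, and was lower there by 2.25 ± 0.34 (SE; limma adjusted p = 0.000463; F test over lines, adjusted p = 0.00325). The next lowest arrays were 10.63 and 11.02 in line 2406 and 11.12 in line 3006, and all 3 of these also had GAPDH ratios above 3. The array of line 2406 with a ratio of 1.52 read 12.01. The male line 106 has an array with a ratio of 4.62, and its other arrays had ratios of 1.96 and 1.62. The male line means of UQCRC2 were 11.80 or higher. As means over the arrays of a line, they do not show the reading of that array alone. The part of RNA integrity in these values was not tested.

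UQCRC1, the other core protein, moved least in the complex by its brightest probe set, with line means 13.23 to 13.57 (limma F test, adjusted p = 0.809). Another of its probe sets, present on all arrays, passed the F test (limma adjusted p = 0.035) with 9.87 in line 2906 against 11.50 to 12.33 in the other lines. UQCRB, a small subunit of the bc1 complex, had line means of 8.75 to 9.04 in lines 2706, 3006 and 3106 and 9.87 on the array of line 2906, which share both parents, and 9.38 to 9.69 in the other 6 lines (limma F test, adjusted p = 0.108). UQCRQ ranged over 0.75 with its peak in line 2906, and UQCRFS1, the Rieske iron-sulphur protein, over 0.37. Neither passed (limma F test, adjusted p = 0.465 and 0.847).

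In complex I, 1 of 24 members passed. NDUFA2, an accessory subunit of the matrix arm, had line means of 12.40 ± 0.18 (SD, n = 3) in line 106, 12.37 ± 0.18 (n = 2) in line 206 and 12.11 ± 0.51 (n = 3) in line 306. It stood at 13.08 ± 0.28, 12.80 ± 0.23 and 13.21 ± 0.19 (each n = 3) in lines 2706, 3006 and 3106 and at 13.49 on the array of line 2906. The 8 arrays of the triplets overlapped those of the quadruplets, since an array of line 306 read 12.65 and an array of line 3006 read 12.60. The next lowest quadruplet array, also of line 3006, read 12.77 and lay above all triplet arrays. The F test gave an adjusted p of 0.0293 in limma, and a second probe set repeated the line order at r = 0.99 with an adjusted p of 0.0123. Its remaining probe set, called present on 0 arrays, gave 0.0802.

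NDUFA9, an accessory subunit of the same arm, was lower in line 2906: 11.15 against 11.90 to 12.73 (median 12.23) on the 26 other arrays, a difference of -1.11 ± 0.24 (SE; limma adjusted p = 0.00635), with no overlap. It did not pass the F test over lines (limma adjusted p = 0.0855). NDUFB3, of the membrane arm, went the other way, with 13.15 in line 2906 and 11.78 to 12.42 for the other line means, and did not pass (limma F test, adjusted p = 0.339). NDUFS3 and NDUFV2, both core subunits, had the smallest ranges in the complex, 0.32 and 0.36 (limma F test, adjusted p = 0.974 and 0.822). The 17 complex I members with their peak in line 2906 included NDUFA6 at 13.70, NDUFA13 at 13.73 and NDUFC1 at 13.79, and none of the 17 was called higher in that line.

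In complex II, none of the 3 subunits on the array passed the F test. SDHA, the flavoprotein, ran from 11.28 ± 0.11 in line 906 to 11.83 in line 2906 (limma F test, adjusted p = 0.326). SDHB, the iron-sulphur subunit, read 10.90 in line 2906 and 11.17 to 11.89 (median 11.60) on the other arrays, without overlap, and was lower there by 0.66 ± 0.19 (SE; limma adjusted p = 0.0381; F test, adjusted p = 0.0832). SDHC, a membrane anchor, ran from 10.52 in line 2906 to 11.24 ± 0.18 in line 3806 (limma F test, adjusted p = 0.82).

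**Figure D3:**
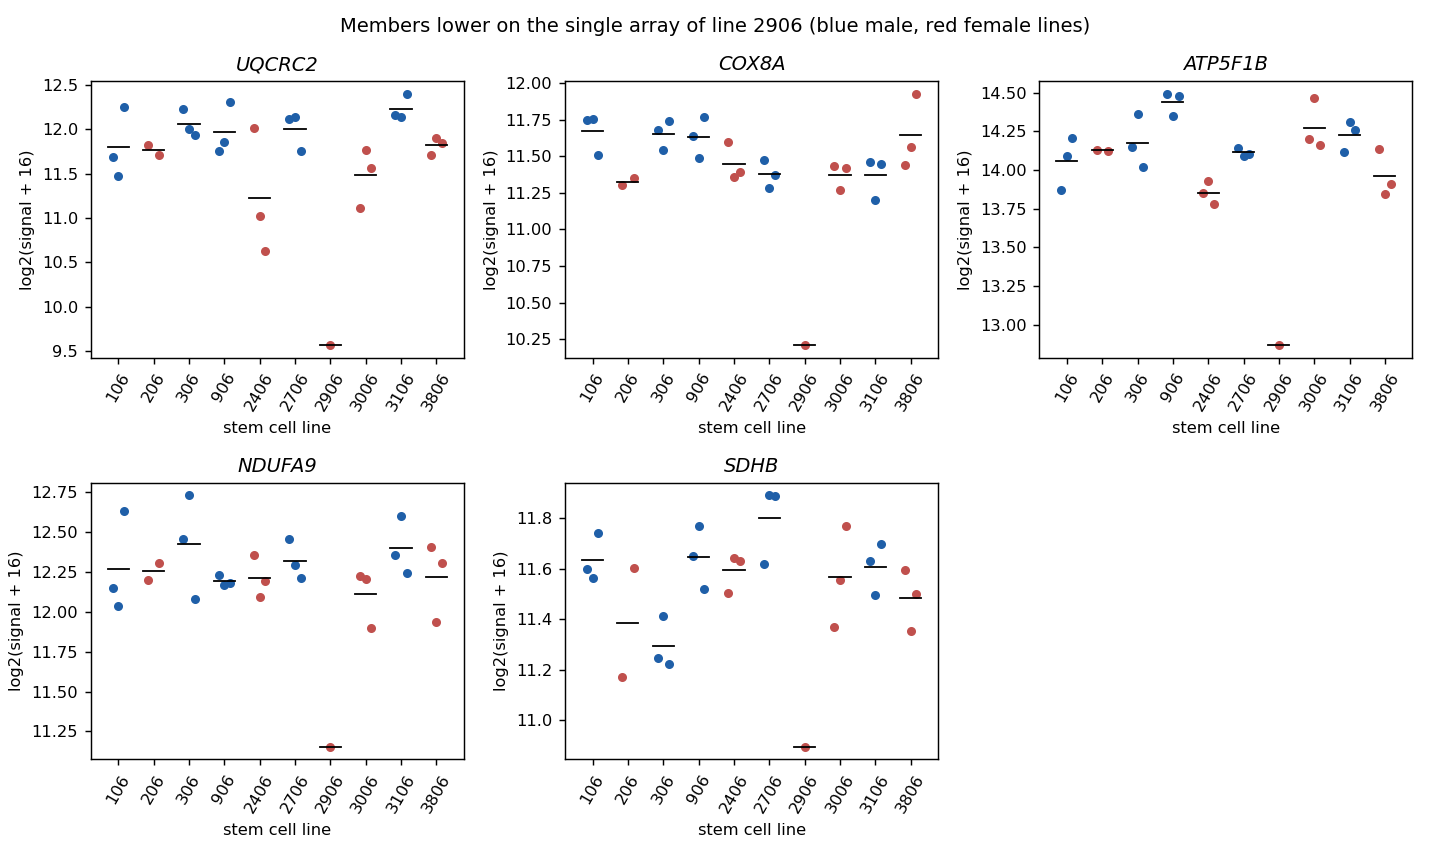
Values of UQCRC2, COX8A, ATP5F1B, NDUFA9 and SDHB on each array (dots, log2 of signal + 16) by line, with line means as bars, male lines in blue and female lines in red; the vertical axes differ and do not start at 0. The single array of line 2906 is the lowest of the 27 in all 5 panels.

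UQCRC2, COX8A, ATP5F1B, NDUFA9 and SDHB were the 5 members called lower in line 2906, against 3.94% of genes tested, and 0 of 74 were called higher, against 2.96%. In that line 45 of 74 lay above the mean of the other lines. The fit takes the spread of the missing replicates of that line from the other lines. The GAPDH ratio of its array, 13.3, lay far above the next highest, 6.15, so a covariate for the ratio is extended beyond the other arrays. With a single array, the line and its ratio cannot be told apart. With the GAPDH ratio of each array as a covariate, none of these 5 line differences passed limma's threshold, and the F test over lines still called ATP5F1B and COX8A but not UQCRC2. With arrays centred on their medians, the line differences of ATP5F1B, COX8A and UQCRC2 passed, and the F test over lines called UQCRC2 but not ATP5F1B or COX8A.

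Among the assembly factors, SDHAF4, which binds SDHA while complex II is assembled, was lowest in line 306, with 7.46, 7.52 and 7.36 on its arrays and 7.49 to 9.07 (median 8.40) elsewhere. An array of line 2406 lay inside the range of line 306. The difference was -0.91 ± 0.20 (SE; limma adjusted p = 0.028; 0.336% of genes lower), and the F test gave an adjusted p of 0.0174. The line difference lost significance when any array of line 306 was left out, without arrays of high GAPDH ratio or of high median, and with the GAPDH ratio as a covariate. The line means of the other triplets were 8.20 ± 0.32 (SD, n = 3) in line 106 and 8.35 ± 0.60 (n = 2) in line 206, and the highest line was 906 at 8.91 ± 0.22 (n = 3). COX20, a chaperone of the mitochondrially encoded subunit COX2, ran from 12.05 ± 0.14 in line 3006 to 13.11 in line 2906, and COX17, a copper chaperone, from 11.28 ± 0.46 in line 306 to 12.24 in line 2906 (limma F test, adjusted p = 0.396 and 0.447). COX10, which makes haem O, and NDUFAF1 each varied over 0.28 (limma F test, adjusted p = 0.961 and 0.967).

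No member was called in lines 2406, 2706 or 3106 against the mean of the other lines, where few genes were: 1.05% higher and 1.27% lower in line 2406, 0.398% and 0.566% in line 2706, and 0.955% and 0.938% in line 3106. At an unadjusted p under 0.05, limma's smallest p values there belonged to ATP5MC1, NDUFAF2 and SDHA in line 2406 (+0.40, +0.34 and +0.28), SDHB, COX7A1 and NDUFS1 in line 2706 (+0.34, -0.54 and -0.30), and UQCRC2, UQCRB and NDUFA2 in line 3106 (+0.71, -0.72 and +0.49). Their adjusted p values in limma lay between 0.0789 and 0.249.

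With line 2906 left out, most pairs of subunits had positively correlated line means, and the median among assembly factors was close to 0. Over the 9 line means without line 2906, the median pairwise Pearson correlation was 0.33 in complex I (276 pairs), 0.22 in complex III (15 pairs), 0.25 in complex IV (36 pairs), 0.33 in complex V (105 pairs) and 0.02 in complex II (3 pairs). Between complexes I and V it was 0.28 over 360 pairs. It was -0.02 among assembly factors (136 pairs), 0.03 between these and complex I, and 0.01 over all pairs of genes tested. With line 2906 the medians of complexes I, V and II were 0.41, 0.13 and -0.48, and those between complex II and complexes I, III, IV and V were all negative (-0.23, -0.14, -0.12 and -0.04). All of these correlations share the same arrays and their common scaling, and they are given as descriptions.

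In complexes I and V the medians were higher for arrays of the same line than for line means. For deviations of 26 arrays from their own line mean the medians were 0.54 in complex I, 0.56 in complex V, 0.55 between the 2, 0.25 in complex III, 0.27 in complex IV, 0.10 in complex II and -0.03 among assembly factors, against 0.01 over all genes tested. The median deviation of complex I was 0.33 on 1 array of line 3806 and -0.07 and -0.09 on the other 2. It was 0.16 on an array of line 306 and -0.21 and -0.34 on its others, and -0.27 on an array of line 2406 and 0.23 and 0.15 on its others. Complex V moved in parallel, with 0.34, -0.08 and -0.10 on the same arrays of line 3806. The within-line standard deviation of the complex I median was 0.17, and the standard deviation of its line means without line 2906 was 0.10. Lines accounted for 6.02% of the variance of the complex I median over arrays with line 2906 and for 0% without it, and for 7.77% and 0% for complex V. For complex II the shares were 53.2% and 34.5%.

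**Figure D4:**
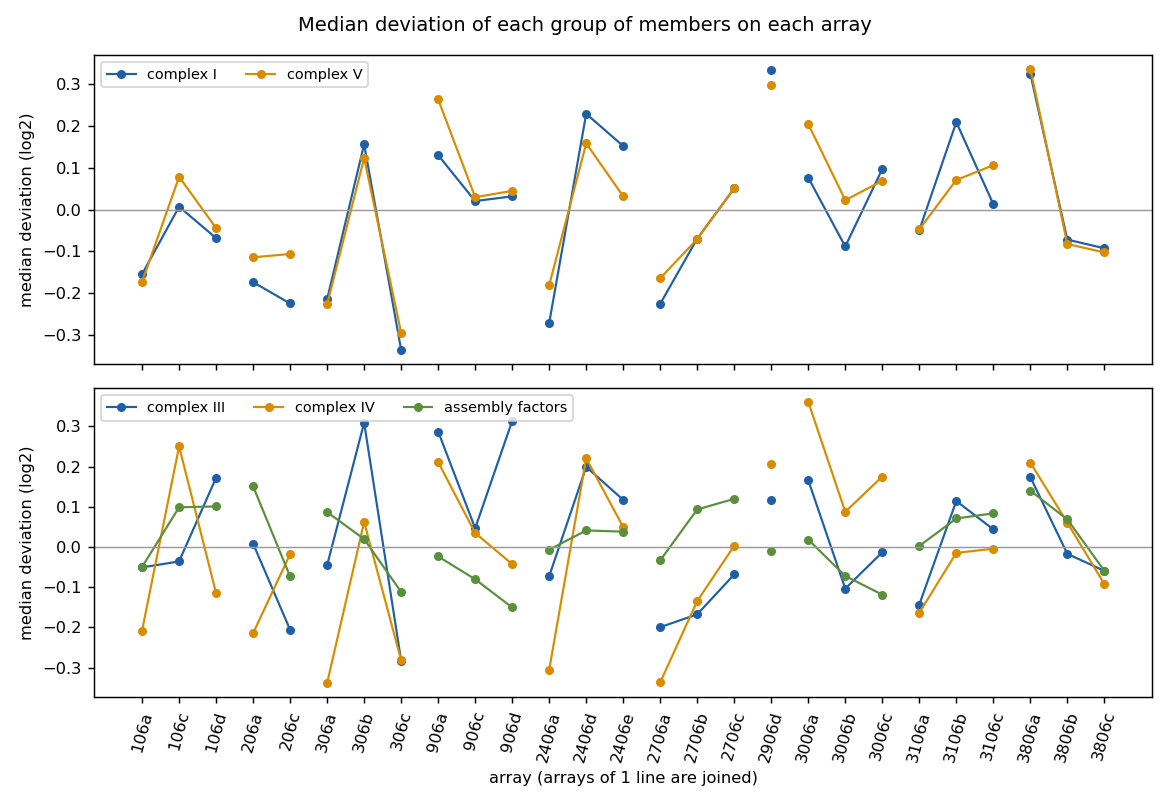
Median deviation of the members of a group from their mean over the 10 lines, on each of 27 arrays (log2 units; arrays of 1 line are joined), for complexes I and V above and complexes III, IV and the assembly factors below. Complexes I and V rise and fall together within lines, and complex I runs from -0.27 to 0.23 over the 3 arrays of line 2406.

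Single members followed the others to different degrees. Over the 9 lines without line 2906, the correlation of a member with the median deviation of all other members was positive for 59 of 74 and above 0.5 for 31, of which 16 of 24 were in complex I, 8 of 15 in complex V, 3 of 6 in complex III, 3 of 9 in complex IV, 0 of 3 in complex II and 1 of 17 among the assembly factors. The highest were ATP5PD and ATP5PF, both of the peripheral stalk, at 0.93 and 0.92, and UQCRFS1 at 0.91. The lowest were COX18, which inserts COX2 into the membrane, at -0.80, NDUFA9 at -0.54, NDUFAF6 at -0.45 and NDUFA10 at -0.42. UQCRFS1 stood at -0.10 when line 2906 was included. Complexes I and V supply 24 and 15 of the 74 members from which the median is drawn, so high counts in these groups are partly built in. The same counts were not made for all genes tested.

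**Figure D5:**
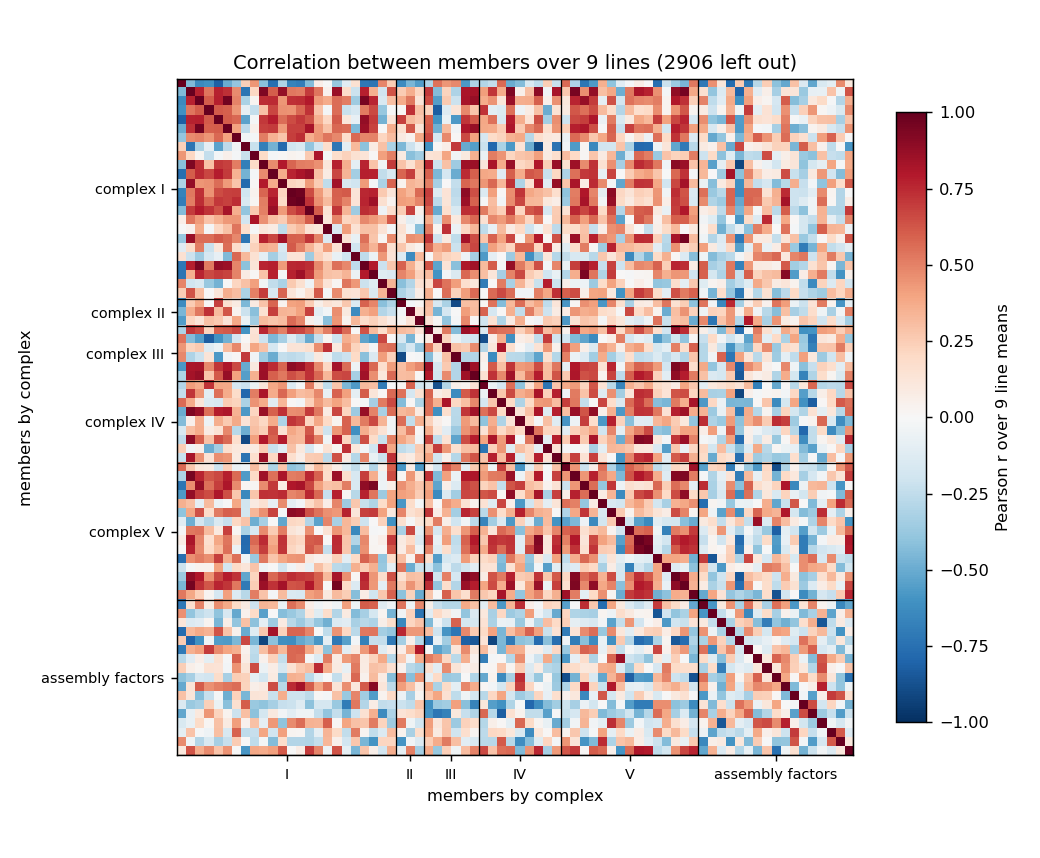
Pearson correlation between the line means of every pair of the 74 tested members over 9 lines (line 2906 left out), with members grouped by complex along both axes. Red blocks in and between complexes I and V show the shared movement (median 0.33 in each), and the assembly factors, with a median of -0.02, show no block.

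By their median deviation, members lay highest in line 2906 in each setting that kept it, and the order of the other lines depended on the setting. The median deviation over the 74 members was -0.12 in line 306, -0.10 in line 206, -0.09 in line 2706 and 0.23 in line 2906, and between -0.03 and 0.06 in the other 6 lines, whereas the median over all genes tested lay between -0.03 and 0.05 in every line. Without the 4 arrays of highest median the value of line 306 was -0.03, with centred arrays lines 206 and 106 were lowest (-0.19 and -0.11), and without arrays of high GAPDH ratio line 2406 was lowest (-0.13), a line that stood at 0.17 with centring. In line 206, 20 of 74 members lay above their mean over lines, and in line 2706, 22 did. Line 2906 was not first by this count: it had 45, with quartiles of the deviation at -0.23 and 0.47, and line 906 had 51. Under quantile normalization line 2906 had 45 and lines 2406 and 3106 had 49 each. With centred arrays line 2906 had 47 and line 2406 had 64. By complex, line 2906 had medians of 0.33 in complex I, 0.30 in complex V, 0.21 in complex IV, 0.12 in complex III, -0.35 in complex II and -0.01 among assembly factors. Under quantile normalization the complex I and V medians in that line were 0.22 and 0.10, and with centred arrays they were 0.35 and 0.31. Line 206 had -0.21 in complex I and -0.12 in complex V, with the same sign under both. The median of complex V in line 2706 was -0.10 and turned to 0.02 under quantile normalization. No test was run on these medians, and the median over all members had a within-line standard deviation of 0.13 between arrays.

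No member was called between the sexes. Between 5 male and 5 female lines, limma on line means called 0 of 74 members (1 at an unadjusted p under 0.05), against 0.0177% of genes tested. UQCRC2 had the smallest p, with 12.01 ± 0.16 (SD, n = 5) in male and 11.17 ± 0.93 (n = 5) in female lines. Its line means ran from 11.80 to 12.23 in male lines and from 9.57 to 11.82 in female lines, with overlap, and the difference was 0.84 ± 0.36 (SE; limma adjusted p = 0.774). The female group contains line 2906. Apart from 1 array of line 106, all arrays with a GAPDH ratio above 3 came from female lines, so sex and the ratio are partly confounded. Without those arrays, which leaves line 2906 out, 0 of 74 members had an unadjusted p under 0.05 in limma. COX17 differed by -0.30 ± 0.16 and SDHA by -0.23 ± 0.13 (male minus female, SE; limma adjusted p = 0.774 for both). Complex I members had a median difference of -0.11 and were higher in male lines in 6 of 24 cases, and 47.8% of all genes tested were higher in male lines.

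No member was called between the families by the same test. Between 4 quadruplet and 3 triplet lines, limma called 0 of 74 members (2 at an unadjusted p under 0.05), against 0.0708% of genes tested. NDUFA2 was 13.15 ± 0.29 (SD, n = 4) in quadruplets and 12.29 ± 0.16 (n = 3) in triplets. The lowest quadruplet line, at 12.80, lay above the highest triplet line, at 12.40, and the difference was 0.85 ± 0.20 (SE; limma adjusted p = 0.247). ATP5MJ was 11.37 ± 0.23 against 10.43 ± 0.55, without overlap (lowest quadruplet line 11.17, highest triplet line 11.07), a difference of 0.94 ± 0.26 (SE; limma adjusted p = 0.347). NDUFA10 was -0.37 ± 0.17 (SE; limma adjusted p = 0.545). Members of complex I were higher in quadruplets in 18 of 24 cases (median 0.20) and those of complex V in 12 of 15 (median 0.19), against 48.8% of all genes tested. The quadruplet group contains line 2906, which was the highest line for 17 of 24 complex I members. Members of these complexes rose and fell together on arrays, so such counts, here and between the sexes, are not of independent cases. With arrays as the units and the line as a random block, NDUFA2 and ATP5MJ passed in limma. With the array letter added as a replicate block NDUFA2 alone passed (limma adjusted p = 0.0275). Of all 32856 probe sets tested, 350 and 342 passed in these settings, against 25 on line means.

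Other genes of the pathway were counted as lists. Of 46 respiratory chain genes outside the naming rule, such as CYC1 and further assembly factors, 28 were on the array and tested, and 2 passed the F test over lines: COA4, an assembly factor of complex IV (9.68 in line 2706 to 10.68 in line 2906; limma adjusted p = 0.0311), and UQCC1, of complex III (11.29 in line 906 to 12.26 in line 2906; limma adjusted p = 0.0383). Of 12 tested regulators of mitochondrial biogenesis, 1 passed, POLG, the mitochondrial DNA polymerase, with 11.45 in line 2906 and 10.06 to 10.75 elsewhere (limma adjusted p = 0.0118). TFAM, which packages mitochondrial DNA, ran from 11.69 to 12.52 and did not pass (limma F test, adjusted p = 0.325). Of 7 hypoxia targets, ADM and LDHA passed. ADM ran from 7.78 in line 3806 to 11.31 in line 3006, and LDHA from 12.93 in line 106 to 14.39 in line 2906 (limma F test, adjusted p = 0.00382 and 0.00314). In line 3006, SLC2A1 was also at its highest (11.85), and CA9 and DDIT4 were at their lowest (9.29 and 10.66), and none of these 3 passed. Of the marker lists, 1 of 7 pluripotency genes, 2 of 6 fibroblast genes, 4 of 5 endoderm genes, 2 of 3 trophoblast genes and 0 of 1 neural genes passed, and their part in the members' values was not tested.

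Of 6 probe sets for the mitochondrial genome, 4 passed the same F test, and these were lowest in line 2906 or 3006. The others did not share that order. MmuMitochon.12.1.S1_s_at ranged over 0.88 and was highest in line 3006. MmuMitochon.13.1.S1_at ranged over 2.34 and was highest in line 2906. The most variable, MmuMitochon.6.1.S1_s_at, had line means of 14.97 to 15.36 in lines 106, 206, 306, 2406 and 3806, 13.21 in line 906 and 10.85 to 11.73 in the 4 quadruplet lines (limma adjusted p = 3.3e-10), a range of 4.51, where the widest range among the nuclear members was 2.67.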

How the data were processed

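Per the labels' protocols, 300 ng of RNA from each of 27 samples of 10 lines went onto an Affymetrix rhesus array. The authors deposited an intensity for every probe set, made with GCOS per the submitters' processing notes, in a version not given in the sources used here. The trimmed mean was 500.035 to 500.041 on every array, so the authors' intensity values were already scaled, which assumes equal overall signal. Present, marginal and absent calls and the parents of each line were taken from the deposited tables, and 1 blank cell was filled from the second deposited copy. All sample columns were used. The number of arrays limits the precision.

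Of 52865 probe sets, 158 controls were set aside. Symbols and roles follow the platform annotation and textbook assignments. Of the 75 members, 74 have their gene identifier in the RefSeq gene table of a later rhesus assembly. The other is ATP5G1, an older symbol of ATP5MC1, so the counts of members and of complex V may include the same gene under both symbols. The 75 members have 125 probe sets, and 37 members have several. Probe sets may cross-hybridise among near-identical copies.

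Values were log2(signal + 16), kept where the signal exceeded the array median on at least 3 arrays (32856 probe sets). limma 3.58.1 in R 4.3.3 was fitted on all of them: an F test among lines and each line against the mean of the others on arrays, and sex and family on line means. P-values were adjusted by Benjamini-Hochberg over all tested probe sets. Scripts were tested on simulated data. Shares of variance came from a random effects decomposition and correlations from line means. Plots used matplotlib 3.10.9. Arrays with the same letter deviated together weakly on average, and some pairs did so more. Their r averaged 0.07 over 77 pairs (-0.24 to 0.53), with 30 pairs over 0.1, and -0.02 over 223 other pairs. The 4 arrays of highest median were array c of lines 106, 206, 306 and 906. The labels do not explain the letters. No pairing was used in the main tests, and the replicate block was an alternative.

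Named were members past the F test, the 3 widest and 2 narrowest ranges in each group, members never called present, tissue isoforms, complex II subunits, members past a line, sex or family test or the 3 smallest p values, members whose probe sets disagreed, and those nearest the filter. NDUFA6, NDUFA13, NDUFC1, COX19, NDUFAF7 and list genes were added as examples, as were those at either end of the correlations. Members, lists and tests were chosen with earlier results of these data known. Alternatives covered pseudocount, filter, normalization, arrays of high GAPDH ratio or median, probe set choice, replicate block, covariates and each array or line left out. No sequences are shown.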

Additional observations from a re-analysis of the deposited data

Results flagged for a closer look

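For 14 named members, line means in the male, female and quadruplet lines (42 groups) were screened for a line far from the rest of its group, and 7 were found. Chance gives such a line in about 1 in 20 groups, but these members were named for their wide ranges or line calls in the same values and the groups share lines, so the number found is not set against that share. Line 2906 stood apart in 6 of them. It was below the other female lines for UQCRC2 (9.57, nearest line 11.22), COX8A (10.21, nearest 11.33) and NDUFA9 (11.15, nearest 12.11). It was below the other quadruplet lines for ATP5F1B (12.87, nearest 14.12), COX8A (10.21, nearest 11.37) and NDUFA10 (11.01, nearest 11.44). Line 906 stood above the other male lines for COX6A2 (9.33, nearest 7.50). Line 2906 has 1 array, with a GAPDH 3′ to 5′ ratio of 13.3, and line 906 has 3 arrays that read 9.24 to 9.40 for COX6A2.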

How the results depend on the processing

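Of the counts and medians recomputed under alternatives, 265 stayed close and 31 moved; of the values of single members, 874 kept their direction and side of the threshold, 132 lost and 3 gained significance, and 1 reversed. ATP5MJ and SDHAF4 passed the F test in each of the 13 and 12 settings in which they were tested and with any array left out. COX6A2 lost its call without the 4 arrays of highest median and without 1 array of line 906. ATP5F1B, COX8A and UQCRC2 lost theirs in 4, 3 and 3 of 13 settings. All 3 lost it without line 2906 and without arrays of high GAPDH ratio. ATP5F1B and COX8A also lost it with centred arrays, ATP5F1B with the mean of the gene's probe sets, and UQCRC2 with the GAPDH ratio as a covariate. NDUFA2 lost its call in 6 of 13 settings and COX4I2 in 4 of 11. Members passing the F test numbered 4 with arrays centred on their medians, 3 without arrays of high GAPDH ratio, 4 without line 2906 and 6 with the array letter as a replicate block (10.1%, 7.96%, 12.1% and 12% of all probe sets passed there, against 16.6%). When each array was left out they numbered 4 to 11. The most passed without array a of line 2406, where 20.6% of all probe sets passed. The fewest passed without the array of line 2906, where 12.1% of all probe sets passed. Line calls (15) numbered 8 with centring, 6 without arrays of high GAPDH ratio, 7 with the ratio as a covariate and 10 to 21 with an array left out. Leaving out arrays of high GAPDH ratio removes the only array of line 2906, so the 5 calls of that line could not be made there. Line calls over all genes were not counted under these settings. Centring shifted arrays by -0.40 to 0.27. Family calls numbered 2 with the line as a random block and 1 with the replicate block added, where 350 and 342 of all probe sets passed, against 25 on line means. COX17 turned to 0.017 (male minus female) without arrays of high GAPDH ratio.

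Median pairwise correlations moved to 0.52 in complex I, 0.10 in assembly factors and 0.25 in all members with centring; to 0.27 in complex I with Spearman's rho; to 0.36 in complex IV, 0.35 in complex V and 0.19 in all members without arrays of high GAPDH ratio; to 0.062 in all members without the 4 arrays of highest median; and to 0.54, 0.10, 0.56 and 0.30 in complexes I, II and V and all members over array deviations. The spread between the highest and lowest line median moved to 0.32, 0.28 (complexes I, II) without arrays of high GAPDH ratio, to 0.59 (II) and 0.33 (assembly factors) with centring, to 0.61 (II) without the 4 arrays of highest median, to 0.20 (V) under quantile normalization, and to 0.26, 0.19, 0.28 and 0.18 (I, II, V, all members) without line 2906. The causes were not tested.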
